A study of Sus scrofa domesticus with 6 samples.

Results

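Mast cells and basophils were taken here as the cells that carried RNA of the IgE receptor and of the stem cell factor receptor. A cell was chosen by 4 conditions: at least 500 UMIs (unique molecular identifiers, the tags by which captured transcripts are counted once), at least 3 UMIs of FCER1A, MS4A2 and KIT summed, at least 1 of them from FCER1A or MS4A2, and 0 UMIs of the T cell gene CD3E and the B cell gene CD79A. The conditions found 410 cells among the 41545 cells of the series with at least 500 UMIs. They held 2923780 UMIs in all and a median of 4797.5 per cell. By RefSeq, FCER1A lies on chromosome 4 at 91118867 to 91125448, MS4A2 on chromosome 2 at 11400415 to 11420314 and KIT on chromosome 8 at 41402334 to 41492306 of the pig build Sscrofa11.1.

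Single-cell RNA libraries made in droplets came from pig lungs before and after transplantation, with 24 hours of cold storage of the graft and 8 hours of reperfusion (ischemia-reperfusion injury, IRI). The 3 controls were unsorted cells from donor right lungs sampled after retrograde perfusion. From grafts, live cells were sorted by CD45, the surface protein of leukocytes, into 2 positive libraries (IRI CD45+) and 1 negative library (IRI CD45-). All lungs were digested to single cells and depleted of red cells, no genetic change is named in the labels, and the pigs' breed and age are not given there. Because the controls were unsorted, the effects of sorting and of injury cannot be told apart. The libraries held 4076 to 15053 cells with at least 500 UMIs, with library medians of 1960 to 3117.5 UMIs per cell. The controls were deposited without any cell under 1001 UMIs, whereas the IRI libraries reached down to 74 to 117. The control and IRI libraries stood apart in the genes they list, and levels were therefore computed over the 23556 genes listed in all 6.

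Mast cells are tissue leukocytes that arise from bone marrow progenitors and depend on stem cell factor, which acts through KIT. Basophils are related blood granulocytes that share with them the high-affinity IgE receptor, made of FCER1A, MS4A2 and the signalling chain FCER1G. When IgE on this receptor is crosslinked, both release histamine and other granule contents, make prostaglandins and leukotrienes, and secrete cytokines. In the lung, mast cells lie around airways and vessels.

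The label held for only part of the selected cells. GATA2, a transcription factor of the mast cell and basophil lineage on chromosome 13 at 71981139 to 71997626, was detected in 112 of the 410 cells, and the cells fell apart by their MHC class II genes, which serve antigen presentation and are high in dendritic cells. The summed level of CD74, SLA-DQB1 and HLA-DRA was under 3000 CPM (a gene's UMIs scaled to 1 fixed total in every library) in 230 cells, called MHC class II-low, and at or above it in 180 cells, called MHC class II-high. The limit was chosen after the values were seen, and 15 of the 410 cells lay between 2000 and 5000 CPM. The MHC class II-low cells had a median of 135 CPM of these 3 genes and 2347 UMIs. The MHC class II-high cells had medians of 20499 CPM and 10578.5 UMIs, 58 of them were in the top 6% of their library's UMI totals, and 5 of the MHC class II-low cells were.

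Mast cell and dendritic cell genes that the selection did not use followed the same line. At least 3 UMIs of GATA2, HDC, HPGDS, SLC18A2, RAB27B, ENPP3 and LTC4S summed were found in 161 of the 230 MHC class II-low cells (70.0%) and in 5 of the 180 MHC class II-high cells (2.78%). GATA2 itself was detected in 107 and 5 of them. In 4701 gated T cells, which should lack GATA2, it had 26 UMIs in all, at library medians of 2560.5 to 4951 UMIs per cell. A list of mast cell markers, of which 13 of 22 were measured, had a median over cells of 2612 CPM in the MHC class II-low and 68.4 CPM in the MHC class II-high cells. Basophil markers, of which 15 of 21 were measured, separated the sets less, with medians of 2129 and 872 CPM. Only 2 of the 180 MHC class II-high cells had no UMI of them. Markers of group 2 innate lymphoid cells had medians of 0 and 369 CPM. A dendritic cell list, which holds CD74 and SLA-DQB1 and so was partly fixed by the split, had medians of 217 and 18588 CPM, and without its MHC class II genes 0 and 1632 CPM. Macrophage markers had medians of 0 and 1105 CPM, T cell markers 0 and 139 CPM, and neutrophil and eosinophil markers 0 CPM in both. NK cell markers had medians of 383 and 43.8 CPM, and B and plasma cell markers 141 and 230 CPM. The MHC class II-low cells had fewer UMIs each, so a median of 0 there does not show absence. Summed in control replicate 1, T cell markers were at 205 CPM in MHC class II-low and 136 CPM in MHC class II-high cells. Group 2 innate lymphoid cell markers were at 901 and 624 CPM there, and macrophage markers at 3871 and 3651 CPM in control replicate 2. In every other library each of these lists was lower in the MHC class II-low cells. FLT3, XCR1 and CD1E, which mark dendritic cells, had 0 UMIs in the MHC class II-low cells of every library. Among the NK cell markers, NKG7 was at 177 to 602 CPM in the MHC class II-low cells. In the IRI CD45- library the MHC class II-low cells held 37251 CPM of summed epithelial markers, and other immune and gated T cells of that library held 38165 and 22526 CPM.

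**Figure D1:**
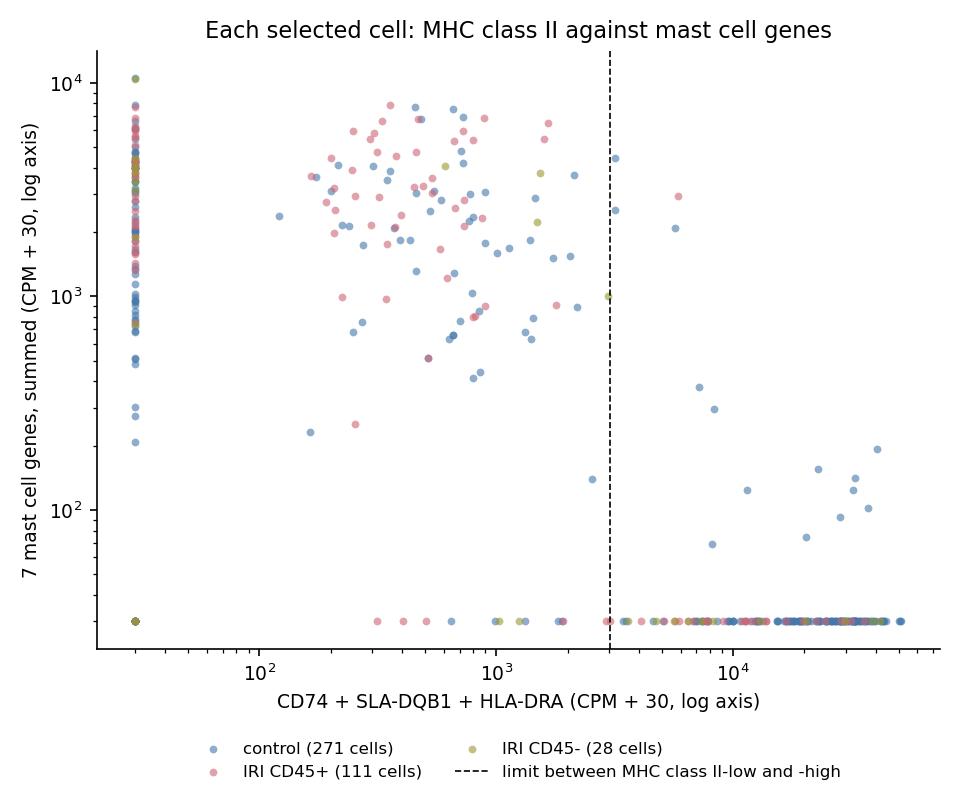
Each point is 1 of the 410 selected cells, by the summed CPM of CD74, SLA-DQB1 and HLA-DRA (x axis) and of GATA2, HDC, HPGDS, SLC18A2, RAB27B, ENPP3 and LTC4S (y axis), both log axes after adding 30 CPM. The 230 cells left of the dashed line at 3000 CPM are mostly high on the y axis, and 165 of the 180 cells right of it lie at 0 UMIs of the 7 genes.

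The 3 genes of the rule marked the 2 sets differently. All of FCER1A, MS4A2 and KIT were detected in 170 cells, of which 156 were MHC class II-low and 14 MHC class II-high. MS4A2 alone was detected in 88 cells, of which 81 were MHC class II-high, and FCER1A and MS4A2 without KIT in 40, of which 36 were MHC class II-high. KIT was found in 215 of the 230 MHC class II-low and 55 of the 180 MHC class II-high cells. MS4A2 was found in 199 and 169, and FCER1A in 191 and 61. Just inside the threshold, at a sum of 3 UMIs, lay 61 cells with 10 GATA2 UMIs among 503042, 23 of them MHC class II-low. Just outside, at a sum of 2 UMIs, lay 138 cells with 13 GATA2 UMIs among 1170676, 42 of them MHC class II-low. In the MHC class II-low cells FCER1A was at 633 to 1599 CPM, MS4A2 at 899 to 1999 CPM and KIT at 1351 to 3668 CPM, values that the rule itself raised. A further 205 cells had 3 or more KIT UMIs without FCER1A or MS4A2, at 44.7 CPM of GATA2, and 54 reached the sum but held CD3E or CD79A, at 51.2 CPM.

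The selected cells made up 1.47 ± 0.485% (SD, n = 3) of the control cells and 1.29 ± 0.0502% (n = 2) of the IRI CD45+ cells. By library the numbers were 48, 127 and 96 cells in control replicates 1, 2 and 3, that is 0.968%, 1.94% and 1.51%. They were 60 and 51 cells in the IRI CD45+ replicates, 1.32% and 1.25%, and 28 cells or 0.186% in the IRI CD45- library. The exact (Clopper-Pearson) 95% interval ran from 0.715% to 1.28% for control replicate 1 and from 1.62% to 2.30% for control replicate 2, and such intervals cover counting error only. The groups overlapped (2-sided exact permutation test over the libraries, p = 0.7, where 0.1 is the smallest p possible). The controls hold no cell under 1001 UMIs, so the 2 groups differ in the floor of their denominators. Among cells of at least 1500 UMIs the shares were 1.65 ± 0.511% in controls and 1.61 ± 0.0110% in IRI CD45+ (exact permutation p = 0.8). Among cells with a PTPRC UMI, a denominator closer to the CD45 sort, the selected cells were 1.12%, 2.47% and 2.30% of the controls and 0.831% and 0.926% of IRI CD45+. There the groups did not overlap, with means of 1.96 ± 0.734% and 0.878 ± 0.0676% (exact permutation p = 0.2). The gap lay in the MHC class II-high cells, whose share was lower in both IRI CD45+ libraries than in every control. Selected cells without a PTPRC UMI were left out of these shares. That kept 83 of the 230 MHC class II-low cells and 141 of the 180 MHC class II-high cells, which had more UMIs each. The MHC class II-low shares overlapped, at 0.52%, 0.592% and 0.729% in controls and 0.639% and 0.386% in IRI CD45+. The shares of the separate sets on this denominator were not tested.

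MHC class II-low cells were 56.2%, 41.7% and 50% of the selected cells of the controls, 88.3% and 62.7% of those in IRI CD45+ and 60.7% in IRI CD45-. Both IRI CD45+ libraries lay above all controls (exact permutation p = 0.1, the smallest possible). As a share of all cells the MHC class II-low set was 0.702 ± 0.139% in controls and 0.977 ± 0.271% in IRI CD45+ libraries (p = 0.2, exact permutation). The MHC class II-high set was 0.769 ± 0.353% and 0.310 ± 0.221% (p = 0.3, exact permutation). PTPRC, which encodes CD45, was detected in 83 of 230 and 141 of 180 cells. In the library sorted as CD45-, it was detected in 3 of 17 and 8 of 11 cells.

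**Figure D2:**
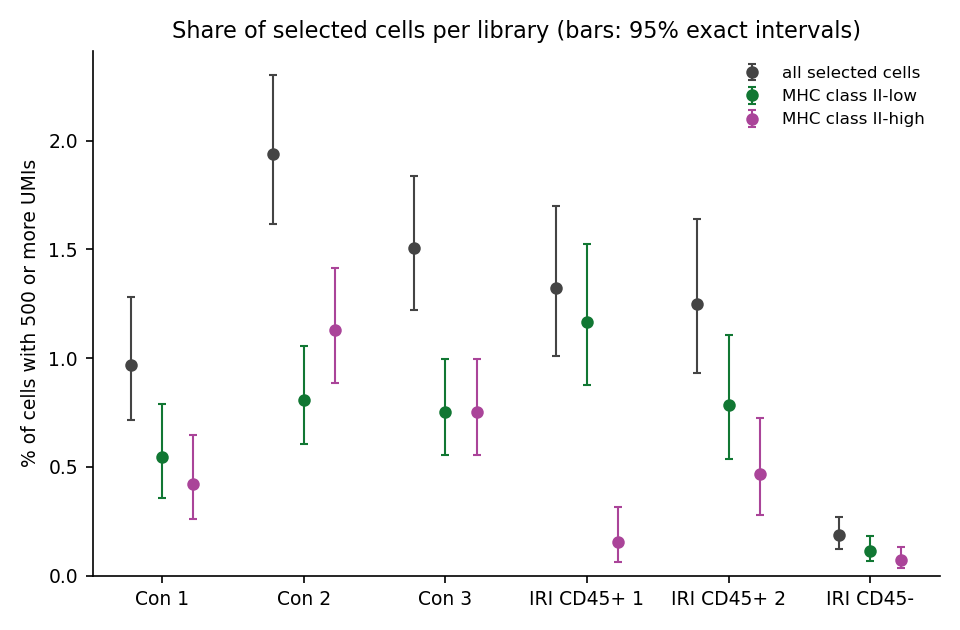
Share of selected cells among cells with at least 500 UMIs (y axis, %) in each library, for all selected cells and for the MHC class II-low and -high sets, with exact 95% intervals. Control replicate 2 is highest at 1.94%, the IRI CD45- library lowest at 0.186%, and the MHC class II-low share exceeds the MHC class II-high share in 4 of the 6 libraries.

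The selected cells were set beside other immune cells of the same libraries, 14338 cells with a PTPRC UMI and none of FCER1A, MS4A2 or KIT. This contrast is the one that chose the cells, so levels are a description without a test. A gene was counted as higher where its level was at least 4 times that of other immune cells in all 6 libraries, with the other cells' level set to at least 3 UMIs per library, so that folds of rarer genes are lower bounds. Of 6413 genes detected in the selected cells of every library, 38 (0.593%) were higher. Of 3292 genes detected in the MHC class II-low cells of every library, 98 (2.98%) were higher. The 38 genes of the whole set included GATA2, HDC, SLC18A2, HPGDS, LTC4S, HRH4, ENPP3 and the dendritic cell gene FLT3, so that genes of both sets stood in 1 list. Values below are therefore given for the MHC class II-low cells where not said otherwise.

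Of the granule list, 8 of 17 genes were measured. The tryptase, chymase, cathepsin G and carboxypeptidase A3 genes of mast cell granules were not analysed here. HDC, the enzyme that makes histamine from histidine (chromosome 1, 121505677 to 121525416), was, in the order of the replicates, at 177, 254 and 211 CPM in controls, 309 and 305 CPM in IRI CD45+ and 36.0 CPM in IRI CD45-. In the MHC class II-high cells it had 2 UMIs in all, and in other immune cells 0.195 to 0.533 CPM. SLC18A2, the transporter that loads histamine into granules, was at 41.0, 18.2 and 252 CPM in controls, 133 and 129.5 CPM in IRI CD45+ and 71.9 CPM in IRI CD45-. HDC was lowest in the IRI CD45- library, where it rested on 1 UMI, and SLC18A2 was lowest in control replicates 1 and 2, with 3 UMIs each. SRGN, the proteoglycan core that packs granule contents, was high in every leukocyte class, at 3167 to 4998 CPM in the MHC class II-low, 1254 to 3694 CPM in the MHC class II-high and 1633 to 3387 CPM in other immune cells. The lysosomal enzymes CTSC and CTSD also did not stand out, with 722 to 1227 CPM against 607 to 1047 CPM and 177 to 827 CPM against 105 to 1151 CPM.

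Enzymes of prostaglandins and leukotrienes made up most of the higher mediator genes. Of the 10 detected in the MHC class II-low cells of every library, HPGDS, PTGS1, PTGS2, ALOX5, LTC4S and HPGD (6 of 10, against 2.98% of all genes) were higher. The 16 measured genes summed to 2989 to 4886 CPM, against 278 to 698 CPM in other immune cells and 976 to 1160 CPM in gated myeloid cells. The myeloid gate asked for at least 3 UMIs of CSF1R, CD68, CSF3R and S100A12 summed. ALOX5, which starts leukotriene synthesis, was at 628, 642 and 443 CPM in controls, 878 and 541 CPM in IRI CD45+ and 539 CPM in IRI CD45-. Its partner ALOX5AP was at 287 to 518 CPM, and LTC4S, which makes leukotriene C4, at 123, 133 and 143 CPM in controls, 341 and 389 CPM in IRI CD45+ and 324 CPM in IRI CD45-. LTC4S was higher in each of the 3 IRI libraries than in each control. The cyclooxygenases make the prostaglandin precursor. PTGS1, the constitutive one, was at 177, 303 and 279 CPM in controls, 580.1 and 472 CPM in IRI CD45+ and 252 CPM in IRI CD45-. PTGS2, the inducible one, was at 519, 709 and 674 CPM in controls, 1315 and 1249.8 CPM in IRI CD45+ and 863 CPM in IRI CD45-, above PTGS1 in every library. HPGDS, which makes the mast cell product prostaglandin D2, was at 177, 236 and 197 CPM in controls, 47.9 and 137 CPM in IRI CD45+ and 71.9 CPM in IRI CD45-, and no UMI of it was found in the MHC class II-high cells. HPGD, which degrades prostaglandins, was at 559.7, 703 and 865 CPM in controls, 373 and 343 CPM in IRI CD45+ and 359.6 CPM in IRI CD45-. Its fold over other immune cells ranged from 9.92 in the IRI CD45- library, where those cells were at 36.2 CPM, to 471. PLA2G7, which hydrolyses platelet-activating factor, was at 179.8 to 447 CPM and was not higher in every library. PTGES3, a cochaperone with prostaglandin E synthase activity, was at 48.5 to 123 CPM against 84.9 to 100.2 CPM in other immune cells.

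Of 32 listed cytokine genes 24 were measured, and IL1B, IL3, IL9, IL13, IL31, TNFSF10, CCL20 and TSLP were not analysed here. Only 5 were detected in the MHC class II-low cells of every library, and 0 of these were higher. Genes with 0 UMIs in the IRI CD45- library, IL4 among them, could not be counted. IL4, made by activated mast cells and basophils, had 18 UMIs in all, at 54.6, 36.3 and 20.4 CPM in controls, 21.3 and 7.62 CPM in IRI CD45+ and 0 CPM in IRI CD45-. The MHC class II-high cells had 0 UMIs of IL4. The 24 measured cytokine genes summed to 1406 to 7263 CPM in the MHC class II-low, 4220 to 9169 CPM in the MHC class II-high and 4121 to 8071 CPM in other immune cells. AREG, an epidermal growth factor family member, was at 247 to 963 CPM in the MHC class II-high and 0 to 221 CPM in the MHC class II-low cells. The neutrophil attractants CXCL8 and CXCL2 ranged widely among the libraries of MHC class II-low cells, from 0 to 1193 CPM and from 13.6 to 4674 CPM. CXCL8 was at 0 UMIs there in control replicates 1 and 3. IL1A was at 68.3 to 213 CPM in MHC class II-low and 196 to 504 CPM in MHC class II-high cells. CCL2, which attracts monocytes, was at 54.6 to 1187 CPM, against 49.6 to 1628 CPM in other immune cells. CCL5, a product of T and NK cells, was at 30.3 to 477 CPM against 1533 to 2775 CPM. CCL4 and TGFB1 were at 0 to 1547 and 170.3 to 450.5 CPM, and OSM at 0 to 351 CPM.

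Among surface receptors, 5 of the 24 detected in every library were higher: CSF2RB, HRH4, PTGER2, ENPP3 and P2RY14. CSF2RB, the shared chain of the receptors for IL-3, IL-5 and GM-CSF, was at 546, 672 and 878 CPM in controls, 2251 and 2400.4 CPM in IRI CD45+ and 1618 CPM in IRI CD45-. All 3 IRI libraries lay above every control. CSF2RB was also present in MHC class II-high (223 to 1279.6 CPM) and other immune cells (61.8 to 458 CPM). HRH4, a histamine receptor of blood cells, was at 259, 260.5 and 272 CPM in controls, 234 and 404 CPM in IRI CD45+ and 36.0 CPM in IRI CD45-. ENPP3, the ectoenzyme CD203c used to mark basophils and mast cells, was at 218, 218 and 272 CPM in controls, 186 and 91.4 CPM in IRI CD45+ and 179.8 CPM in IRI CD45-. Both were nearly absent from other immune cells, which held 0.0728 to 1.05 CPM of HRH4 and 0.291 to 4.33 CPM of ENPP3. PTGER2, a prostaglandin E2 receptor, was at 287, 212 and 286 CPM in controls, 31.9 and 45.7 CPM in IRI CD45+ and 71.9 CPM in IRI CD45-, low in all 3 IRI libraries. P2RY14, a receptor for UDP-sugars, was at 71.9 to 383 CPM and also found in MHC class II-high cells (18.1 to 65.5 CPM). IL1RL1, the IL-33 receptor, was at 81.9, 72.7 and 143 CPM in controls, 159.7 and 76.2 CPM in IRI CD45+ and 36.0 CPM in IRI CD45-. It was 4-fold higher than in other immune cells in 5 libraries and 2.98-fold in the IRI CD45- library. IL4R and IL2RG had ranges that overlapped those of other immune cells, 78.7 to 979 against 94.4 to 505 CPM and 151 to 298 against 208 to 389.9 CPM. CXCR4, TNFRSF1B and CD44, shared by most leukocytes, were at 71.9 to 614, 40.9 to 617 and 68.3 to 366 CPM, and the tetraspanin CD9 at 41.0 to 775 CPM. CD69, an early activation antigen, was at 472 to 2111 CPM in MHC class II-low and 2.00 to 60.2 CPM in MHC class II-high cells, against 367 to 1383 CPM in other immune cells. The IL-3 receptor alpha chain, CCR3 and MRGPRX2 were not analysed here.

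Of the genes that carry the IgE receptor signal to granule release, 2 of 23 were higher in the MHC class II-low cells: RAB27B, a small GTPase that docks granules at the membrane, and RASGRP4, a Ras activator of mast cells. RAB27B was at 573, 751 and 946 CPM in controls, 1794 and 968 CPM in IRI CD45+ and 1007 CPM in IRI CD45-. It had 9 UMIs in the MHC class II-high cells, all in control replicate 2, and was at 0.583 to 3.50 CPM in other immune cells. RASGRP4 was at 37.3 to 179.8 CPM against 2.59 to 6.87 CPM. The shared components were less particular. FCER1G was at 205 to 564 CPM in MHC class II-low, 183 to 564 CPM in MHC class II-high and 82.9 to 173 CPM in other immune cells. The kinases LYN and SYK were at 179.8 to 897 and 95.6 to 211 CPM, and the adaptors LAT, LAT2 and GRB2 at 231 to 687, 242 to 617 and 137 to 480.1 CPM. LAT separated the 2 sets, with 0 to 27.5 CPM in the MHC class II-high cells. The granule membrane proteins CD63 and VAMP8 were at 669 to 2445 and 218 to 676 CPM, and PRKCB at 81.9 to 266 CPM.

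Of 20 lineage transcription factors detected in the MHC class II-low cells of every library, GATA2 and ERG were higher. GATA2 was at 396, 424 and 402 CPM in controls, 569 and 511 CPM in IRI CD45+ and 719 CPM in IRI CD45-. It was at 0 to 45.8 CPM in MHC class II-high, 0.519 to 2.48 CPM in other immune and 0 to 6.73 CPM in gated T cells, and the median fold over other immune cells was 283. ERG, a factor of endothelial and early blood cells, was at 36.3 to 271 CPM against 3.11 to 7.36 CPM. GATA1, which drives mast cell, eosinophil and red cell genes, was uneven, at 0, 36.3 and 27.2 CPM in controls, 325 and 53.3 CPM in IRI CD45+ and 0 CPM in IRI CD45-. Of its 78 UMIs, 61 were in IRI CD45+ replicate 1. MITF, a regulator of mast cell genes, was at 41.0, 90.9 and 20.4 CPM in controls, 53.2 and 107 CPM in IRI CD45+ and 108 CPM in IRI CD45-, and the aryl hydrocarbon receptor AHR at 206 to 467 CPM. IRF8 and SPI1, which guide dendritic and other myeloid cells, were at 0 to 197 and 0 to 224 CPM in MHC class II-low against 301 to 1013 and 15.1 to 262 CPM in MHC class II-high cells. RUNX1, STAT3, CEBPB, BHLHE40, NFIL3 and ID2, shared widely among leukocytes, were at 30.5 to 218, 199.9 to 522, 164 to 431, 216 to 479, 36.0 to 109 and 647 to 2525 CPM.

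**Figure D3:**
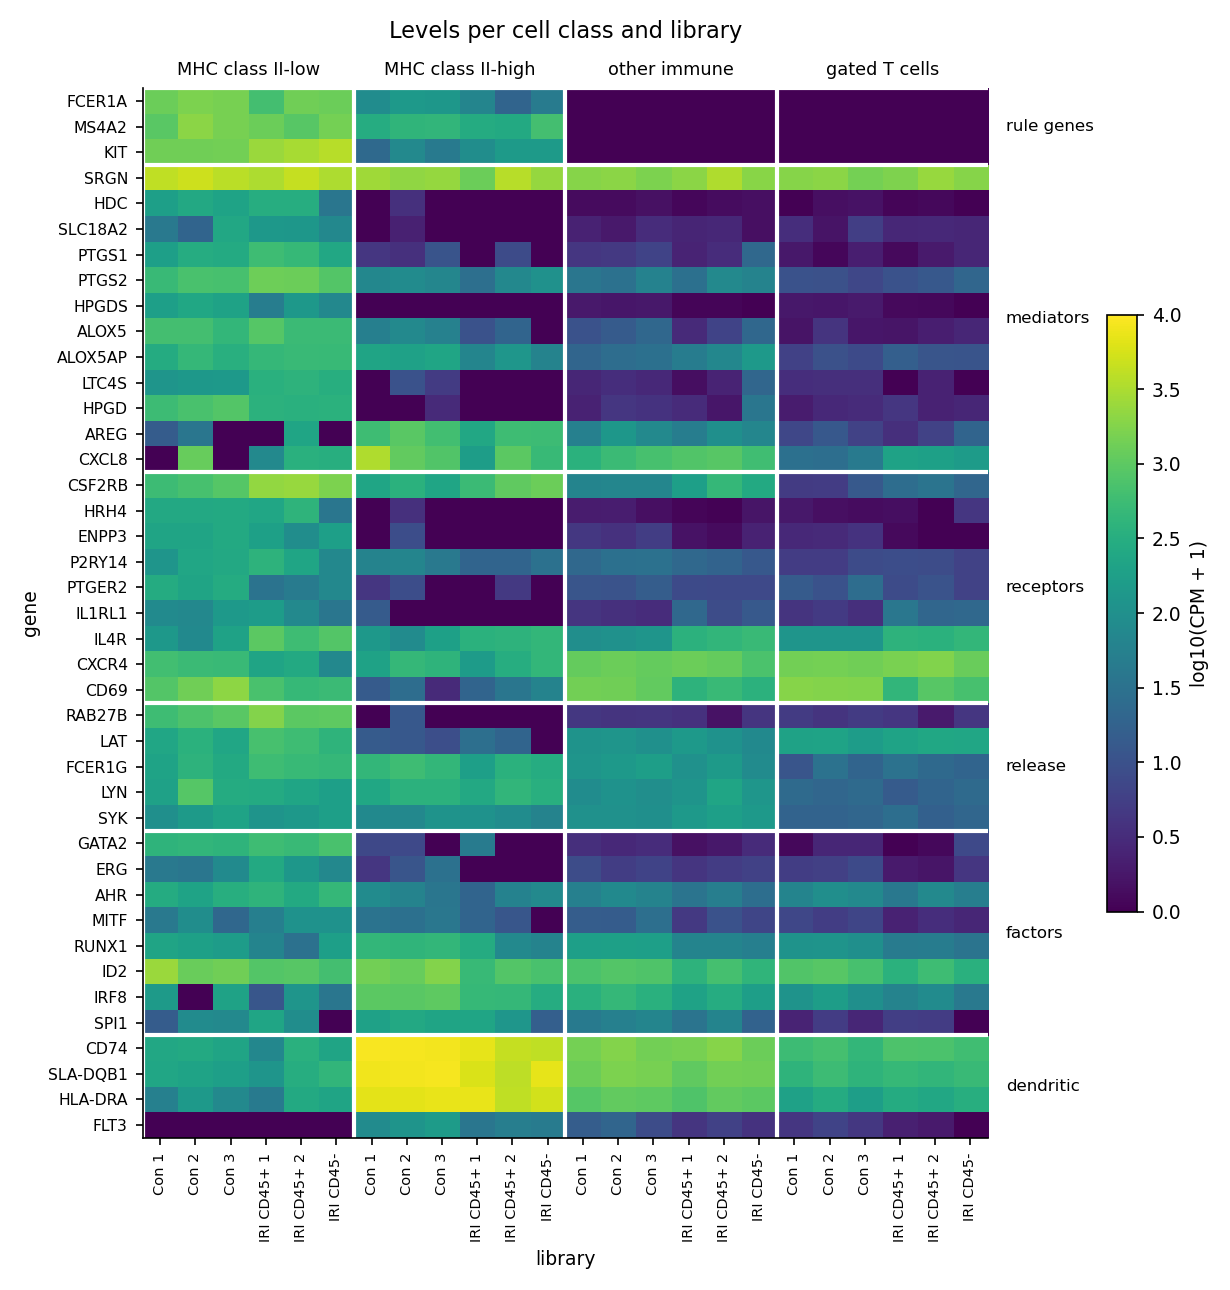
Level of each gene, as log10(CPM + 1) from 0 to 4, in the MHC class II-low and -high cells, other immune cells and gated T cells of each library (columns). HDC, HPGDS, HRH4, ENPP3, RAB27B and GATA2 are highest in the MHC class II-low columns, and CD74, SLA-DQB1, HLA-DRA and FLT3 are highest in the MHC class II-high columns.

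The genes with the largest folds over other immune cells reached beyond the mediator lists. Apart from the 3 genes of the rule, the highest median fold of any gene with a symbol was that of CCN3, a secreted matrix-associated protein also known as NOV. It was at 1433, 2029 and 2288 CPM in controls, 1794 and 1875 CPM in IRI CD45+ and 1438 CPM in IRI CD45-, with 19 UMIs in the MHC class II-high cells and 0.655 to 2.62 CPM in other immune cells, a median of 1647-fold (546 to 2861). An unnamed gene, ENSSSCG00000035337, was higher still, at 179.8 to 1708 CPM and a median of 3722-fold. MLPH, which links Rab27 to myosin on granules, was at 123, 182 and 109 CPM in controls, 208 and 168 CPM in IRI CD45+ and 359.6 CPM in IRI CD45-, a median of 280-fold. HDC followed CCN3 at 715-fold, HRH4 at 419-fold and RAB27B at 314-fold, the first 2 below 50 CPM in the IRI CD45- library. Among genes of at least 50 CPM in every library, PAPLN, HPGD, ENPP3, LTC4S, PTGS1, PDE3A and ALOX5 lay between 58.8 and 271-fold. GREB1L, VWA5A, TFPI2, CAMKK1 and ENC1 lay between 33.3 and 54.0-fold. PDE3A, a cyclic nucleotide phosphodiesterase, was 5.42-fold higher in the lowest library and 773-fold in the highest. VWA5A, on the mast cell list, was at 216 to 909 CPM and TFPI2, a serine protease inhibitor, at 205 to 1629 CPM. Over all selected cells the leading genes also held those of the MHC class II-high set, with median folds of 5.42 to 8.55 for TAMALIN, GNG11, IL13RA1, GPR137B, AREG, SERPINB1, GNB4 and ST3GAL2. Of these, IL13RA1 was at 123 to 182 CPM in MHC class II-high and 0 to 36.0 CPM in MHC class II-low cells, and GPR137B at 211 to 433 and 0 to 38.1 CPM.

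Control and IRI CD45+ cells were then compared by UMIs summed per library with edgeR's quasi-likelihood test. Over all selected cells 902 of 5812 genes were called at an adjusted p under 0.05 (15.5%), of which 384 were higher (6.61%) and 518 lower (8.91%) in IRI CD45+ cells. Of the MHC class II-low cells' genes 465 of 3015 were called (15.4%), of which 173 rose (5.74%) and 292 fell (9.68%). Of the falls in all selected cells, 167 (32.2%) were genes whose level in other immune cells also lay at least 4-fold lower in both IRI CD45+ than in every control library, and 29 of the rises (7.55%) were such genes in the other direction. For the MHC class II-low cells these were 89 of 292 falls (30.5%) and 12 of 173 rises (6.94%). Without such genes 640 of 5606 and 353 of 2674 genes were called.

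The makeup of the selected cells moved with the comparison. MHC class II-low cells held 20.3%, 18.1% and 23.0% of the selected cells' UMIs in controls and 63.3% and 32.3% in IRI CD45+. Of 10 mast cell markers tested over all selected cells 2 rose (LTC4S and RAB27B) and 0 fell (20%, against 15.5% of all genes), with a median log2 change of 0.64. Several of the genes described above for the MHC class II-low set rose, among them CSF2RB, IL4R, CD44, LAT and CD63, which are given by role below. Picked out here are 7 others that rose: HDC by a log2 of 1.61 ± 0.36 (SE), LTC4S by 2.35 ± 0.34, PTGS1 by 2.11 ± 0.40, PTGS2 by 1.68 ± 0.29, GATA2 by 1.55 ± 0.35, RAB27B by 2.06 ± 0.50 and HRH4 by 1.28 ± 0.30, with edgeR adjusted p between 0.00372 and 0.0338. Of these, HDC, GATA2, RAB27B and HRH4 lost the call without any 1 of the controls, and PTGS1 without control replicate 1 or 2. Others did not pass over all selected cells: CCN3 changed by 1.03 ± 0.32 (edgeR adjusted p = 0.0624), ALOX5 by 1.08 ± 0.39 (0.0929), SLC18A2 by 1.28 ± 0.96 (0.403), ENPP3 by 0.39 ± 0.51 (0.642), HPGD by 0.14 ± 0.39 (0.847) and HPGDS by -0.19 ± 0.41 (0.792). HDC was at 37.3, 51.1 and 52.8 CPM in controls and 189 and 106 CPM in IRI CD45+ over all selected cells, and LTC4S at 25.8, 33.7 and 39.2 CPM in controls and 209 and 135 CPM in IRI CD45+, so that for both every IRI CD45+ value lay above every control. Of the dendritic cell list, 7 of 13 genes fell (53.8%, against 15.5% of all genes), among them CD74, SLA-DQB1, FLT3 and IRF8, and 0 rose. The median log2 change of this list was -1.37 against -0.05 over all genes. Within the MHC class II-low cells CSF2RB, IL4R and CD44 also rose. None of the 7 picked genes from HDC to HRH4 passed the edgeR test in those cells. Their changes there were 0.26 ± 0.40 for HDC (edgeR adjusted p = 0.73), 1.20 ± 0.40 for LTC4S (0.0597), 0.79 ± 0.38 for PTGS1 (0.188), 0.77 ± 0.28 for PTGS2 (0.0855), 0.16 ± 0.34 for GATA2 (0.81), 0.61 ± 0.32 for RAB27B (0.223) and 0.03 ± 0.41 for HRH4 (0.965). LTC4S was higher in both IRI CD45+ libraries than in every control there, and a p above the threshold does not show that levels were equal.

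By role, 1 of 8 granule genes (HDC, higher, 12.5%) was called over all selected cells, against 15.5% of all genes. So were 3 of 13 lipid enzymes (PTGS1, PTGS2 and LTC4S, higher, 23.1%) and 1 of 16 cytokine genes (6.25%). The last was OSM, an IL-6 family member, at 20.1, 23.2 and 29.0 CPM in controls and 58.7 and 438 CPM in IRI CD45+, with most of the rise in IRI CD45+ replicate 2. Its call was lost without that library and without any 1 of the controls. Of 30 IgE signalling and release genes 7 rose (LAT, GAB2, LCP2, ITPR2, STX3, RAB27B and CD63) and ITPR1 fell (26.7% called). All of these but LAT and LCP2 lost the call without any 1 of the controls, and GAB2 and STX3 also with DESeq2. Without IRI CD45+ replicate 2 the calls of GAB2, STX3, CD63 and ITPR1 were lost, and without replicate 1 that of ITPR2. LAT, the adaptor that passes the signal of the receptor to calcium release, was at 60.2, 80.2 and 64.8 CPM in controls and 430.4 and 215 CPM in IRI CD45+. Of 37 receptors 7 rose (CSF2RB, IL7R, IL4R, IL2RA, HRH4, TLR4 and CD44) and 3 fell (ADORA2A, HRH1 and PTGER2), 27.0% of them. CSF2RB, IL2RA and HRH1 kept the call in every alternative that tested them. PTGER2 and CD44 lost it without any 1 of the controls or IRI CD45+ replicate 2, PTGER2 also with DESeq2, HRH4 without any 1 of the controls, IL7R without control replicate 2 or 3, TLR4 and ADORA2A without control replicate 1 or 3, and IL4R without control replicate 1. HRH1, a histamine receptor, had 0 UMIs in the IRI CD45+ libraries, at least 10.6-fold lower, and was also at least 4-fold lower in their other immune cells. Of 36 transcription factors GATA2 rose and 5 fell, namely RUNX1, IRF4, IRF8, MEF2C and ID2, a share of 16.7% against 15.5% of all genes. IRF4 lost the call without any 1 of the controls, and IRF8 and ID2 without control replicate 1 or 3. The 12 largest rises of named genes were IL2RA, SOX13, TNFRSF18, SUCNR1, ACVRL1, ARG1, GRB10, FDFT1, ARHGEF40, BATF, PKIG and SLC30A2, with log2 changes from 3.44 to 5.48. Of these, IL2RA, ARG1 and FDFT1 were also at least 4-fold higher in the other immune cells of both IRI CD45+ libraries. ARG1 lost the call with no filter on low counts, without cells in the top 6% of UMI totals and in the MHC class II-low cells. Without 1 library the calls of ACVRL1 (control replicate 1 or 3, IRI CD45+ replicate 2), SLC30A2 (control replicate 2, IRI CD45+ replicate 1) and BATF (IRI CD45+ replicate 1) were lost. The 12 largest falls had 0 UMIs in the IRI CD45+ libraries and were all at least 4-fold lower in other immune cells too, namely CTNNA3, KLHL3, PODN, ZAN, ZSWIM5, TENM1, SLC35F4, RLBP1, EPM2A, DHTKD1, LIN28B and TMEM98. DHTKD1 lost the call without control replicate 3 or either IRI CD45+ library. Because the makeup moved with this comparison, what follows is given for the MHC class II-low cells. Their own makeup was not uniform either. A UMI of GATA2, HDC, HPGDS, SLC18A2, RAB27B, ENPP3 or LTC4S was found in 205 of the 230. Among those without any were cells of 24038 and 9587 UMIs, of 131401 UMIs in IRI CD45+ replicate 2. In control replicate 2 they included cells of 14700 and 10041 UMIs, of 180891 UMIs. The part of such cells in the changes below was not tested.

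**Figure D4:**
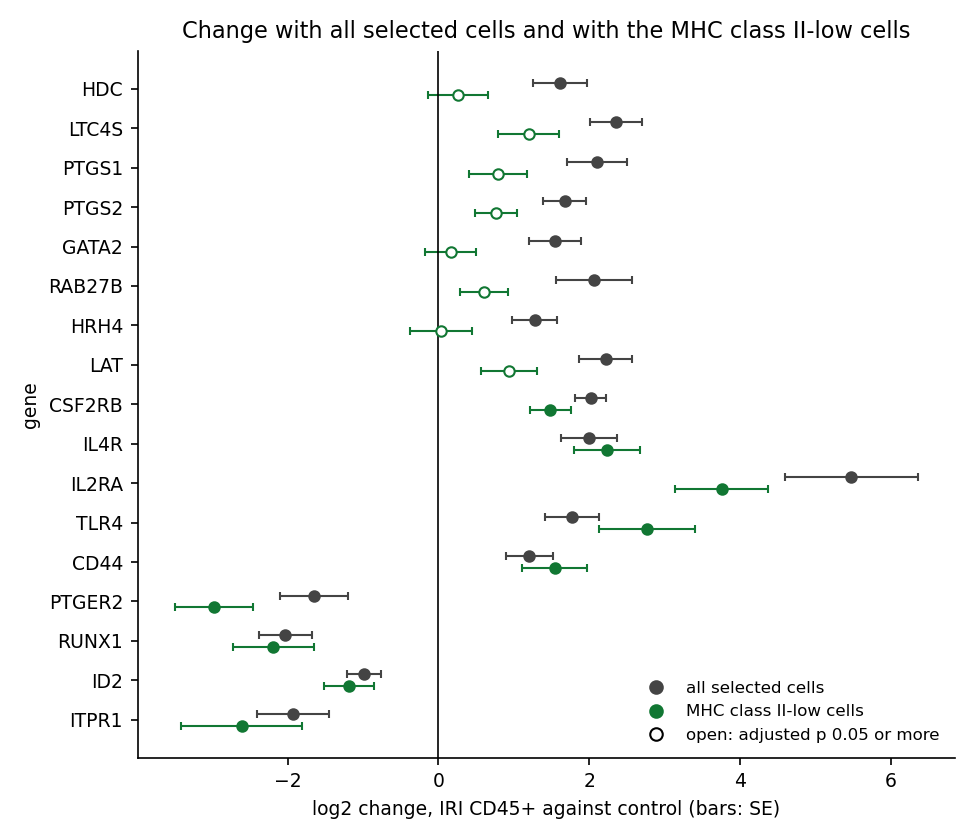
Log2 change from control (n = 3 libraries) to IRI CD45+ (n = 2) with its SE (x axis) for 17 genes, in all selected cells (grey) and in the MHC class II-low cells (green), with open symbols where the edgeR adjusted p is 0.05 or more. The 8 genes from HDC to LAT pass over all selected cells, 1.28 to 2.35, and not in the MHC class II-low cells, 0.03 to 1.20, while the 9 genes from CSF2RB to ITPR1 pass in both.

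The mediator genes of the MHC class II-low cells gave 1 call, where 15.4% of all genes tested were called. Of 7 granule genes tested with edgeR 0 rose and 0 fell (median log2 change 0.07, against -0.01 over all genes), with 0 at an unadjusted p under 0.05 and 0 called by DESeq2. Of 10 cytokine genes 0 rose and 0 fell (median 0.05), with 1 at an unadjusted p under 0.05 and 0 called by DESeq2. Of 10 lipid mediator enzymes 1 fell and 0 rose (median 0.13). The one that fell was HPGD, which inactivates prostaglandins. It was at 718, 904 and 1090.1 CPM in controls and 387 and 384 CPM in IRI CD45+ (log2 change -1.23 ± 0.34, SE, edgeR adjusted p = 0.0267), and the groups did not overlap. The call was lost without control replicate 2 or 3 and without either IRI CD45+ library. HPGDS, which makes prostaglandin D2, was at 228, 304 and 249 CPM in controls and 49.8 and 154 CPM in IRI CD45+, again without overlap, and did not pass (log2 change -1.41 ± 0.53, SE, edgeR adjusted p = 0.0897). ALOX5 was at 806, 826 and 558 CPM in controls and 913 and 606 CPM in IRI CD45+ (log2 change 0.06 ± 0.34, SE, edgeR adjusted p = 0.921) and SRGN at 5220.1, 6430.4 and 4892 CPM in controls and 3292 and 5037 CPM in IRI CD45+ (log2 change -0.41 ± 0.24, SE, edgeR adjusted p = 0.273). All values by condition are CPM after TMM scaling, and differ in scale from the CPM above.

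Among the mediator, receptor, release and transcription factor lists, receptors held 9 of the 14 called genes. Of 23 receptors 5 rose and 4 fell (39.1%, against 15.4% of all genes, median log2 change 0.03). CSF2RB, the chain that signals for IL-3, IL-5 and GM-CSF, was at 701, 865 and 1107 CPM in controls and 2341 and 2689 CPM in IRI CD45+ and rose (log2 change 1.49 ± 0.27, SE, edgeR adjusted p = 0.0023). IL4R was at 175, 101 and 249 CPM in controls and 1018 and 632 CPM in IRI CD45+ and rose (log2 change 2.24 ± 0.44, SE, edgeR adjusted p = 0.00364). IL2RA, the IL-2 receptor alpha chain, was at 140.1, 39.0 and 120.2 CPM in controls and 1969.8 and 606 CPM in IRI CD45+ and rose (log2 change 3.76 ± 0.61, SE, edgeR adjusted p = 0.0033). Each of these calls held under every alternative that could test the gene. The groups did not overlap for any of the 3, and the 2 IRI CD45+ libraries differed most for IL2RA. The same genes changed in the other immune cells by log2 values of 2.20, 1.99 and 3.00, and the difference between the 2 changes did not pass (limma adjusted p = 0.504, 0.858 and 0.807). TLR4, the receptor for lipopolysaccharide, was at 17.5, 54.6 and 8.58 CPM in controls and 188 and 222 CPM in IRI CD45+ and rose (log2 change 2.77 ± 0.64, SE, edgeR adjusted p = 0.00985), on 9 control and 60 IRI CD45+ UMIs. The call was lost without control replicate 3 (edgeR adjusted p = 0.0574). CD44, which binds hyaluronan, was at 87.6, 133 and 146 CPM in controls and 326 and 409.8 CPM in IRI CD45+ and rose (log2 change 1.54 ± 0.43, SE, edgeR adjusted p = 0.0267). Its call was lost without any 1 of the controls or IRI CD45+ replicate 2, and among cells with both MS4A2 and KIT.

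PTGER2, through which prostaglandin E2 raises cyclic AMP, was at 368, 273 and 360.5 CPM in controls and 33.2 and 51.2 CPM in IRI CD45+ and fell (log2 change -2.98 ± 0.52, SE, edgeR adjusted p = 0.00178), the largest fall of any receptor called. The call held under all 11 alternatives. In other immune cells PTGER2 changed by a log2 of -0.66, and the difference did not pass (limma adjusted p = 0.0963). CXCR4, the receptor for CXCL12, was at 788, 686 and 635 CPM in controls and 227 and 299 CPM in IRI CD45+ and fell (log2 change -1.42 ± 0.37, SE, edgeR adjusted p = 0.0204), while other immune cells were at 1136 to 1269 CPM in controls and 1276 and 1146 CPM in IRI CD45+. The difference of the changes did not pass (limma adjusted p = 0.166). Without control replicate 3 or IRI CD45+ replicate 1 the fall of CXCR4 was not called, nor among cells with both MS4A2 and KIT. CD69, a marker of recent activation and of tissue residence, was at 1086, 1777 and 2661 CPM in controls and 730.4 and 529 CPM in IRI CD45+ and fell (log2 change -1.55 ± 0.37, SE, edgeR adjusted p = 0.0117), with the lowest values in both IRI CD45+ libraries. It lost the call without control replicate 3 or IRI CD45+ replicate 2. ITGA4, an integrin chain for VCAM1, was at 228, 101 and 137 CPM in controls and 49.8 and 17.1 CPM in IRI CD45+ and fell (log2 change -2.03 ± 0.65, SE, edgeR adjusted p = 0.0471). That call was lost without control replicate 1 or 3 or IRI CD45+ replicate 2, with DESeq2 and in cells of 1500 or more UMIs.

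Of 27 genes of IgE receptor signalling and release, 0 rose and 1 fell (3.70%, against 15.4% of all genes, median log2 change 0.24). ITPR1, a calcium channel of the endoplasmic reticulum that opens on receptor signals, was at 158, 46.8 and 180.2 CPM in controls and 27.7 and 8.54 CPM in IRI CD45+ and fell (log2 change -2.61 ± 0.80, SE, edgeR adjusted p = 0.0412), on 36 control and 6 IRI CD45+ UMIs. Its call was lost without either IRI CD45+ library, with DESeq2 and in cells of 1500 or more UMIs. LAT was at 298, 468 and 292 CPM in controls and 714 and 649 CPM in IRI CD45+ and did not pass (log2 change 0.94 ± 0.37, SE, edgeR adjusted p = 0.104), although both IRI CD45+ libraries lay above all controls. RAB27B was at 736, 967 and 1193 CPM in controls and 1865 and 1084 CPM in IRI CD45+, with overlap between the groups.

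Of 22 lineage transcription factors 1 rose and 2 fell (13.6%, near the 15.4% of all genes, median log2 change -0.20). STAT5A, which acts below KIT and the IL-3 receptor, was at 35.0, 39.0 and 51.5 CPM in controls and 470.3 and 137 CPM in IRI CD45+ and rose (log2 change 2.82 ± 0.60, SE, edgeR adjusted p = 0.00627). The call was lost without IRI CD45+ replicate 1, which had the higher level. RUNX1, a regulator of blood cell lineages, was at 280.3, 242 and 206 CPM in controls and 66.4 and 34.1 CPM in IRI CD45+ and fell (log2 change -2.19 ± 0.54, SE, edgeR adjusted p = 0.0136). It lost the call without IRI CD45+ replicate 2 (edgeR adjusted p = 0.0776). ID2, an inhibitor of helix-loop-helix factors, was at 3241, 1590.1 and 1691 CPM in controls and 874 and 1024 CPM in IRI CD45+ and fell (log2 change -1.19 ± 0.33, SE, edgeR adjusted p = 0.0271). Its call was lost without control replicate 1 or either IRI CD45+ library, and in cells of 1500 or more UMIs. GATA2 was at 508, 546 and 506 CPM in controls and 592 and 572 CPM in IRI CD45+ and ERG at 52.6, 46.8 and 103 CPM in controls and 282 and 145 CPM in IRI CD45+, and neither passed. The change of the called mediator, receptor, release and transcription factor genes was also set against that in other immune cells. The difference passed for 0 of 14 (limma, adjusted p under 0.05), with 3 at an unadjusted p under 0.05, ITPR1, PTGER2 and CXCR4. A difference that did not pass does not show that the changes were equal.

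**Figure D5:**
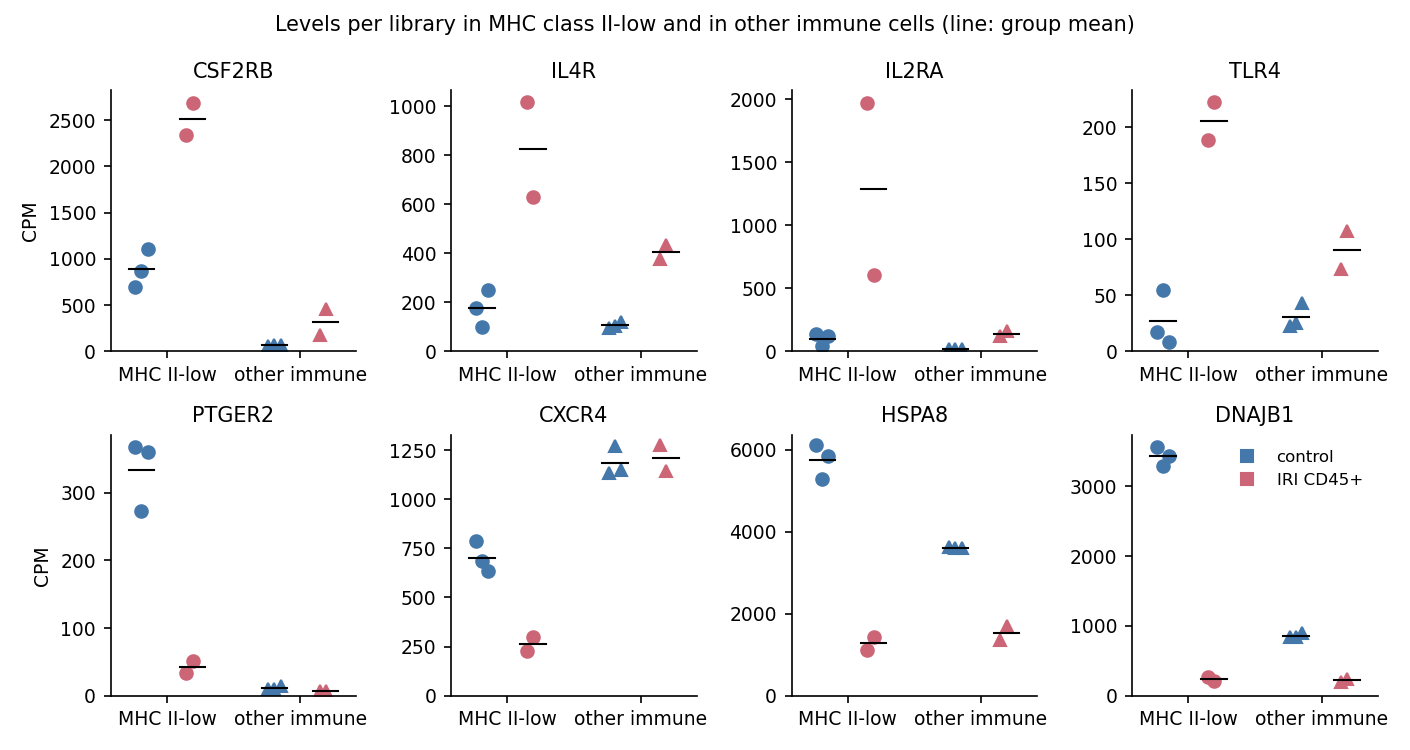
Levels per library (points, TMM-scaled CPM in MHC class II-low cells, CPM in other immune cells; y axes start at 0) and group means (lines) of 8 genes in control (blue, n = 3) and IRI CD45+ (red, n = 2) libraries. CSF2RB, IL4R, IL2RA and TLR4 are higher and PTGER2, CXCR4, HSPA8 and DNAJB1 lower in both IRI CD45+ libraries of MHC class II-low cells, and CXCR4 lies between 1136 and 1276 CPM in other immune cells.

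Of 22 heat shock and endoplasmic reticulum chaperone genes tested in the MHC class II-low cells 11 fell, 0 rose and 11 were not called. That was 50%, against 15.4% of all genes, and the median log2 change was -1.06. Over all selected cells 8 of 25 fell and 5 rose (HSP90B1, ATF4, XBP1, MANF and TRIB3), 52% against 15.5% of all genes, with a median of -0.04. DNAJB1, a cochaperone of HSP70, was at 3573, 3297 and 3433 CPM in controls and 271 and 213 CPM in IRI CD45+ (log2 change -3.81 ± 0.28, SE, edgeR adjusted p = 4.83e-06). HSPA8, the constitutive HSP70, was at 6113, 5285 and 5837 CPM in controls and 1107 and 1443 CPM in IRI CD45+ (log2 change -2.17 ± 0.24, SE, edgeR adjusted p = 7.01e-05). HSPD1, the mitochondrial chaperonin, was at 1874, 857 and 1528 CPM in controls and 216 and 213 CPM in IRI CD45+ (log2 change -2.71 ± 0.39, SE, edgeR adjusted p = 0.000606), and HSPH1 at 2575, 2299 and 2969.8 CPM in controls and 924 and 982 CPM in IRI CD45+ (log2 change -1.46 ± 0.25, SE, edgeR adjusted p = 0.00181). These 4 calls held under every alternative and their groups did not overlap. The others that fell were DNAJA1 and DNAJB4, also under every alternative, and HSPA5, HSPB1, BAG3, PDIA4 and HERPUD1. HSPA5 kept the call in 3 of 11 alternatives and lost it without control replicate 1 or 3 or either IRI CD45+ library. HSPB1 and PDIA4 lost it without control replicate 1 or IRI CD45+ replicate 1, HERPUD1 without control replicate 1 or IRI CD45+ replicate 2, and BAG3 without IRI CD45+ replicate 1. In other immune cells DNAJB1 changed by a log2 of -1.91 and HSPA8 by -1.19, and the differences did not pass (limma adjusted p = 0.0548 and 0.174). By limma the difference from the change in other immune cells passed for 0 of the 22, with 6 at an unadjusted p under 0.05.

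Immediate early genes, which respond within minutes to cell stimulation and to tissue digestion, went both ways. Of 22 tested 2 rose (IER3 and BTG2) and 5 fell (NR4A1, NR4A2, KLF2, KLF4 and MYC), with a median log2 change of -0.38. The share called was 31.8%, against 15.4% of all genes. As a level, this list summed to 25429 to 39912 CPM in the MHC class II-low cells. Other immune cells held 8599 to 12676 CPM and gated myeloid cells 15770 to 19554 CPM. Of its 23 genes detected in the MHC class II-low cells of every library, 2 (FOSB and EGR1) were at least 4-fold higher than in other immune cells in all 6 libraries. IER3 was at 455, 1169 and 815 CPM in controls and 1887 and 3355 CPM in IRI CD45+ (log2 change 1.66 ± 0.37, SE, edgeR adjusted p = 0.0121) and KLF2 at 350.3, 725 and 1047 CPM in controls and 155 and 222 CPM in IRI CD45+ (log2 change -1.93 ± 0.48, SE, edgeR adjusted p = 0.0147). The IER3 call was lost without IRI CD45+ replicate 2, and the KLF2 call without control replicate 3 or IRI CD45+ replicate 1. NR4A2 and KLF4 kept the call under every alternative, while NR4A1 lost it without IRI CD45+ replicate 1, MYC without control replicate 1 or IRI CD45+ replicate 2, and BTG2 without either of these or control replicate 3. Of 17 NF-kB feedback genes 4 rose (NFKB2, RELB, TNIP1 and ICAM1) and 1 fell (BIRC3), 29.4% of them, with a median of 0.73. TNIP1 lost the call without any 1 of the controls or IRI CD45+ replicate 2 and with DESeq2, and ICAM1 without control replicate 2 or 3 or IRI CD45+ replicate 1. NFKB2 was at 105, 31.2 and 51.5 CPM in controls and 321 and 282 CPM in IRI CD45+ (log2 change 2.40 ± 0.54, SE, edgeR adjusted p = 0.00846) and RELB at 0, 23.4 and 17.2 CPM in controls and 376 and 196 CPM in IRI CD45+ (log2 change 4.08 ± 0.68, SE, edgeR adjusted p = 0.00145), on 5 control UMIs, and both calls held under every alternative. Of 12 interferon response genes 1 rose and 1 fell (16.7%, near the 15.4% of all genes). Of 15 hypoxia and glycolysis genes 0 rose and 1 fell (ADM, 6.67%). Of 28 oxidative phosphorylation genes 0 rose and 0 fell (edgeR, 2 at an unadjusted p under 0.05 and 0 called by DESeq2).

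Among the largest rises of named genes, COX17, a copper chaperone of cytochrome c oxidase, had the most UMIs beside IL2RA. It was at 52.6, 70.1 and 85.8 CPM in controls and 852 and 802 CPM in IRI CD45+ (log2 change 3.52 ± 0.41, SE, edgeR adjusted p = 0.000127), while other immune cells were at 251 to 267 CPM in controls and 393 and 311 CPM in IRI CD45+. The 2 IRI CD45+ values lay close together and far above the controls. SOX13 was at 0, 23.4 and 25.7 CPM in controls and 326 and 179 CPM in IRI CD45+ (log2 change 3.66 ± 0.67, SE, edgeR adjusted p = 0.00244), and was not called without IRI CD45+ replicate 1 (edgeR adjusted p = 0.0665). ADAM8, a cell surface protease, had 3 UMIs in the controls and was at 17.5, 7.79 and 8.58 CPM in controls and 309.9 and 333 CPM in IRI CD45+. FABP5, a fatty acid binding protein, also had 3 control UMIs, at 17.5, 15.6 and 0 CPM in controls and 271 and 128 CPM in IRI CD45+, while other immune cells were at 229 to 241 CPM in controls and 85.2 and 123 CPM in IRI CD45+. Its call was lost without IRI CD45+ replicate 1. The other 7 named were FARSA, RELB, TM6SF1, ARID5A, ARHGEF40, CNPPD1 and METTL17, all with 5 or fewer UMIs in the controls.

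Of the 12 largest falls, 11 had 0 UMIs in the IRI CD45+ MHC class II-low cells, and 10 of the 12 were also at least 4-fold lower in the other immune cells of both IRI CD45+ libraries. TENM1, a teneurin of the cell surface, was at 876, 694 and 566 CPM in controls and 0 and 0 CPM in IRI CD45+, at least 51.0-fold lower against a floor of 3 UMIs over the group. RLBP1, a retinaldehyde-binding protein, was at 858, 538 and 635 CPM in controls and 0 and 0 CPM in IRI CD45+, at least 47.8-fold lower. The others at 0 UMIs were CTNNA3, KLHL3, ZSWIM5, LIN28B, SPEF2, FAM227A, DPT, ZAN and BCAS3, at least 13.9 to 37.3-fold lower. CTNNA3, an alpha catenin, had 150 control UMIs in the MHC class II-low cells and was abundant in other immune cells too, at 450.1 to 612 CPM in controls and 0.130 and 0.146 CPM in IRI CD45+. Other immune cells held 38.5 to 44.1 CPM of TENM1 and 7.07 to 7.80 CPM of RLBP1 in the controls, so that both were more abundant in the MHC class II-low cells there. LPL, lipoprotein lipase, was at 315, 1083 and 1931 CPM in controls and 0 and 8.54 CPM in IRI CD45+, 382 control UMIs and 1 IRI CD45+ UMI (log2 change -7.97 ± 1.31, SE, edgeR adjusted p = 0.012). The call was lost without either IRI CD45+ library. Other immune cells held 2.17 to 6.60 CPM in controls and 0.908 and 0.437 CPM in IRI CD45+. In controls 2 and 3 the MHC class II-low cells also held 4822 and 4848 CPM of 12 summed endothelial and fibroblast markers, against 63.9 to 236 CPM in control replicate 1 and the IRI CD45+ libraries, and control replicate 2 held 3871 CPM of macrophage markers against 123 to 1204 CPM. Their part in these falls was not tested. The control and IRI matrices differ in the genes they list and in their lowest cell, the sources used here do not say whether they were made alike, and the part of that in the falls to 0 UMIs was not tested.

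The change in the selected cells was tested against that in the other immune cells of the same libraries with limma. Over all selected cells 179 of 5812 genes differed (3.08%), 102 with a more positive change (1.75%) and 77 with a more negative one (1.32%). In the MHC class II-low cells 84 of 3015 differed (2.79%), 58 more positive (1.92%) and 26 more negative (0.862%). COX17 was among them, with a log2 difference of 2.82 ± 0.39 (limma adjusted p = 0.0111). Both counts also hold genes at 0 UMIs in the IRI CD45+ selected cells, where the prior count of 2 limits the change. Over all selected cells CTNNA3 fell to 0 UMIs, yet counted as more positive (-7.31 against -10.92 in other immune cells, limma adjusted p = 0.00815). Of the 12 largest falls named, 5 over all selected cells and 6 in the MHC class II-low cells were in these counts. These counts depended on single libraries: over all selected cells limma called 0 genes without control replicate 1, without control replicate 3 or without IRI CD45+ replicate 1 (979, 886 and 1425 genes at an unadjusted p under 0.05), 13 without control replicate 2 and 464 without IRI CD45+ replicate 2. In the MHC class II-low cells it called 0 genes without either IRI CD45+ library (407 and 553 at an unadjusted p under 0.05) and 35 without control replicate 3.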

How the data were processed

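Single-cell RNA was read from 3 control, 2 IRI CD45+ and 1 IRI CD45- library of pig lung. The deposited matrices hold whole UMI counts per gene and cell, written by PISA per the file headers. The genome build was Sscrofa11.1 and the tools named were Seurat 5.5.3 and R 4.2.2, per the submitters' processing notes, and the libraries were made with the DNBelab C Series kit and sequenced on DNBSEQ-T7, per the labels' protocols. The aligner and any doublet removal are not named in the sources, and no doublet caller was run here. The matrices name their cells by running names, of which 1898 occur in every library, so shared barcodes could not be counted. Library totals were 19098567 to 40647380 UMIs.

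The members and all gene lists were chosen with earlier results of these data known. Counts were summed per library over the selected cells. Control was compared with IRI CD45+ over the 23668 genes listed in all 5 libraries by edgeR 4.0.16 (TMM, filterByExpr, robust quasi-likelihood F test, Benjamini-Hochberg over all genes tested, threshold 0.05). The change was compared with that of other immune cells by limma 3.58.1, fitted to selected minus other immune cells within each library, on log2 CPM with a prior count of 2. DESeq2 1.42.0, other size factors, other gates, a replicate block and each library left out in turn were tried. Gates for comparison were CD3E of at least 2 UMIs for T cells and CSF1R, CD68, CSF3R and S100A12 summed to at least 3 UMIs for myeloid cells. The scripts were tested on simulated data. Python 3.11.15, scipy 1.17.1 and R 4.3.3 were used, and 139 Ensembl identifiers were given a symbol from a gene name table. The labels name 3 pairs without saying which libraries pair and do not tie libraries to animals, so p-values measure the spread between these libraries, which may be technical.

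Named by condition were the 12 largest rises and 12 largest falls among called genes that carry a symbol, average 50 CPM or more in either group and do not overlap between groups, and each called gene of the mediator, receptor and transcription factor lists. Named against other immune cells were the 20 highest median folds among genes of at least 50 CPM in every library and at most 8 genes per list. Other genes were named after their values were seen, among them those given for the MHC class II-low cells only. The MHC class II split and its comparisons were added after the data had been seen.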

Additional observations from a re-analysis of the deposited data

Results flagged for a closer look

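Over all selected cells, 9 named genes changed between control and IRI CD45+ libraries by a different amount than in the other immune cells of the same libraries (limma on per-library differences, with more than 3 UMIs of selected cells in each group). The log2 difference was 4.01 for ARHGEF40 (change of 3.07 in the selected and -0.94 in other immune cells, limma adjusted p = 0.0198), and 2.26 for BATF, an AP-1 family transcription factor (2.79 and 0.54, limma adjusted p = 0.048). It was 2.52 for PKIG, an inhibitor of protein kinase A (3.17 and 0.65, limma adjusted p = 0.0494), and 1.89 for LAT, an adaptor of IgE receptor signalling (2.10 and 0.21, limma adjusted p = 0.0309). It was 3.06 for RAB27B (1.87 and -1.19, limma adjusted p = 0.0489), 3.21 for HRH4 (1.24 and -1.97, limma adjusted p = 0.048) and 1.51 for MANF, an endoplasmic reticulum stress protein (1.74 and 0.23, limma adjusted p = 0.0437). It was negative, at -1.53, for the adenosine receptor gene ADORA2A (-2.36 and -0.83, limma adjusted p = 0.0435) and at -2.07 for the interferon-induced GBP1 (-1.15 and 0.92, limma adjusted p = 0.0411). Of 8 alternatives, 0 to 2 kept the call of each gene, HRH4 being the one with 0. The change of HRH4 in other immune cells rested on 2 and 1 UMIs in the IRI CD45+ libraries, so its difference is not read as a result. The share of MHC class II-low cells moved with this comparison, and its part was not tested for these genes by a model with both terms.

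In the MHC class II-low cells COX17 differed by 2.82 (3.31 and 0.49, limma adjusted p = 0.0111). The call held in 3 of 5 fits that each left out 1 library, with limma adjusted p from 0.0085 to 0.22.

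The library sorted as CD45- held 28 selected cells, 0.186% of its cells, although mast cells and basophils carry CD45. These were 17 MHC class II-low and 11 MHC class II-high cells.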

How the results depend on the processing

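Over all selected cells edgeR called 902 genes. The count was 1619 with no filter on low counts, 441 with a replicate block, 465 in the MHC class II-low and 529 in the MHC class II-high cells alone, and 326 to 1661 with 1 library left out, lowest without control replicate 3 and highest without IRI CD45+ replicate 2. The 465 genes of the MHC class II-low cells became 304 with a replicate block and 254 to 420 with 1 library left out, lowest without control replicate 3. The other settings gave counts within 1.5 times, among them DESeq2 with 822 and 380. The 179 genes whose change differed from that in other immune cells became 20 with a prior count of 0.5, 290 against myeloid cells, 42 with a replicate block, 84 in the MHC class II-low cells and 0 to 464 with 1 library left out. Those 84 became 0 to 89. The difference in the share of selected cells, IRI CD45+ minus control, was -0.18 percentage points. It was 0.27 for the MHC class II-low cells, 0.048 without control replicate 2 and -0.44 to 0.048 with 1 library left out. The largest shift was to -1.08 among cells with a PTPRC UMI. There the groups did not overlap over all selected cells, while the shares of the MHC class II-low cells did. The 38 genes higher than in other immune cells became 98 in the MHC class II-low cells. The cause of these shifts was not tested. Of 800 values for 52 named genes over all selected cells, 676 kept their direction and call, 124 kept the direction and lost the call, and 0 reversed. In the MHC class II-low cells these were 538, 117 and 0 of 655 values for 62 genes.

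The labels do not say whether same-numbered control and IRI CD45+ libraries are pairs. In the MHC class II-low cells the correlations of their deviations from the group means were 0.11 for number 1 and 0.20 for number 2. With 2 IRI CD45+ libraries the deviations of 1 mirror those of the other, so these values cannot show which libraries pair. Over 2 numbers the block result is given only as a count of calls.

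The MHC class II-low cells held 73257 to 187893 UMIs per library outside the IRI CD45- library, where a count of 3 UMIs came to 108 CPM.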
